A study of Mus musculus with 4 samples.

Results

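The genes described here are 10 genes that mark dendritic cells or act in their development: Flt3, Irf8, Batf3, Zbtb46, Clec9a, Itgae, Cd209a, Clec10a, Siglech and Fscn1. They were taken by gene symbol from lung expression profiles of 4 groups of mice that listed 23238 distinct symbols. Each of the 10 had exactly 1 row in the files, and all 10 passed the filter on low values, which 15164 rows passed.

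Dendritic cells take up antigen in tissues such as the lung, carry it to lymph nodes and present it to T cells. They develop from bone marrow progenitors under the cytokine Flt3 ligand and fall into conventional type 1 cells (cDC1), which cross-present antigen to CD8 T cells, conventional type 2 cells (cDC2), which mainly serve CD4 T cells, and plasmacytoid cells (pDC), which make type I interferon. The lineages share transcription factors such as Irf8 and differ in their surface receptors, and after maturation they gain a migratory state in which the actin-bundling protein fascin is made. None of these genes is restricted to dendritic cells in every setting, so that a value from whole lung is a level of a transcript and not a cell count.

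The mice were males of the CDF1 hybrid strain. The study crossed treadmill running at high intensity (E) with cancer (T) and so had a normal control group, E(-)T(-), a normal exercise group, E(+)T(-), a cancer control group, E(-)T(+), and a cancer exercise group, E(+)T(+). Mice of both T(+) groups had been injected in the tail vein with CT26, an established line of murine colorectal carcinoma cells. The labels give the age as postnatal day 28 and a group size of 10 mice. The study bought the mice at 4 weeks of age and dissected them at the end of the experiment. Day 28 thus matches the age at purchase and not at dissection. Lung RNA of each group was sequenced as 1 library, 4 libraries in all, from the 3' ends of polyadenylated transcripts. The number of mice behind each lung library is not stated outright. In the study's account a representative mouse per group gave the calf muscle, and other organs such as lung were analysed similarly, which points to a single mouse per library. There were no replicate libraries, so no difference between groups given below has a replicate check.

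Each library held between 9354517 and 13367999 reads in genes, and 3 reads, the smallest count treated as detectable, corresponded to 0.224 to 0.321 CPM. Transcripts of the alveolar surfactant gene Sftpc were present in all 4 libraries, between 11268 and 153666 reads. Hemoglobin genes took 14.3% of the reads in normal control, 14.2% in normal exercise, 1.43% in cancer control and 31.4% in cancer exercise. Scaling by library totals alone moved the median of the tested genes to -0.59 in cancer exercise over cancer control, to -0.41 in cancer exercise over normal exercise and to -0.52 in cancer exercise over normal control. Some 9 genes reached 500 normalized counts or more in cancer control without a read in normal control, and all 9 gave reads in normal exercise, at a median of 1.47% of their cancer control level.

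The lung of the cancer control mice held little RNA of the surface genes Clec9a, Itgae, Cd209a and Siglech, and the lung of the cancer exercise mice held more Clec9a but still little of the other three. The receptor Flt3 and the transcription factors Batf3, Irf8 and Zbtb46 stood at their highest in cancer exercise on the scale of the deposited values (with library totals alone, Irf8 was higher in normal control). Fscn1 and Clec10a went the other way and were highest in cancer control. In whole lung RNA, fewer cells of a type and less RNA per cell cannot be told apart. Levels are given below as reads and as deposited log2 values, which are log2(normalized read count + 1), and where 4 values of a gene stand in a row they run from normal control over normal exercise and cancer control to cancer exercise. An interval in brackets after a log2 difference is the 95% exact (Clopper-Pearson) interval of the log2 read ratio of the libraries compared. It is scaled by their effective sizes, treats reads as independent and addresses counting error only.

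**Figure D1:**
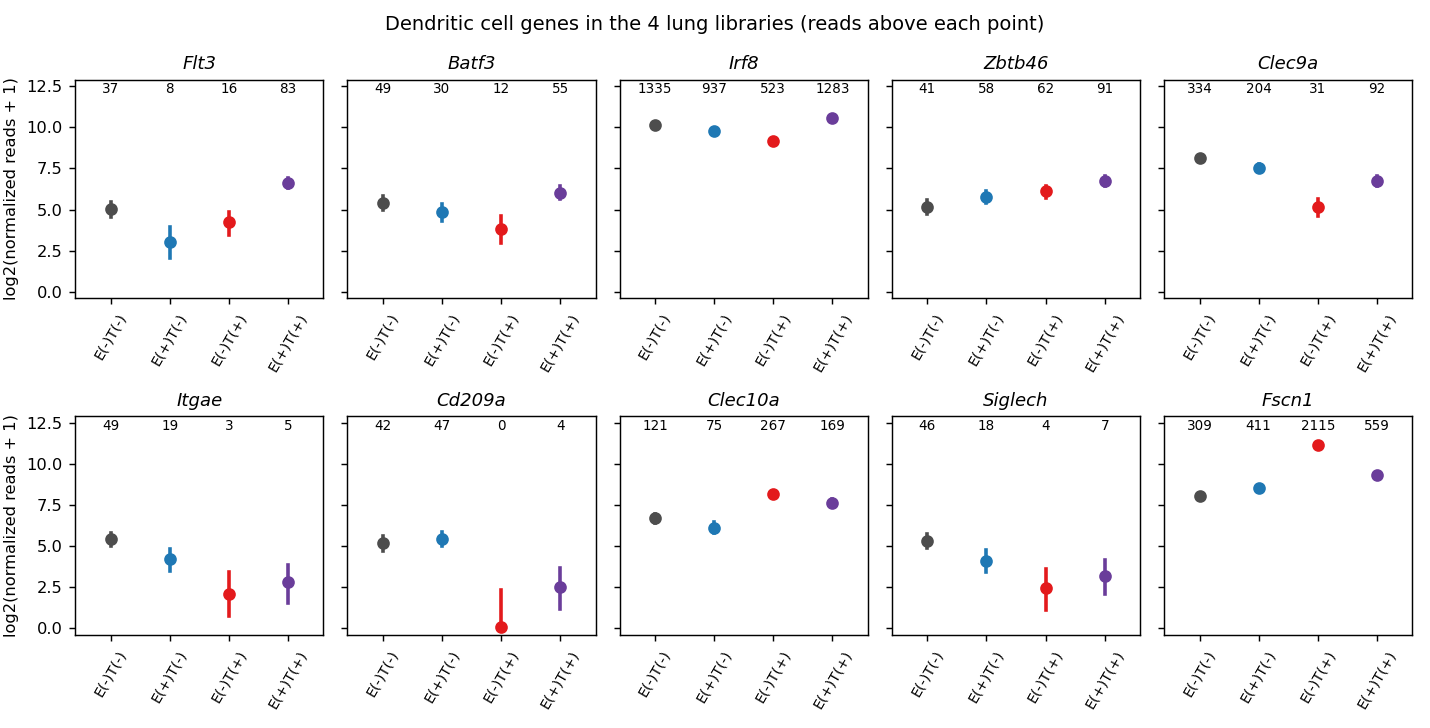
Deposited log2 values (y axis, log2 of normalized reads + 1) of the 10 dendritic cell genes in the 4 lung libraries (x axis), 1 point per library, with 95% exact Poisson intervals of the reads as vertical lines and the reads printed at the top of each panel. Clec9a, Itgae, Cd209a and Siglech were lowest in E(-)T(+), where Fscn1 and Clec10a were highest, and Flt3, Batf3, Irf8 and Zbtb46 were highest in E(+)T(+), Irf8 not with library totals alone.

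Flt3 encodes the receptor tyrosine kinase for Flt3 ligand and is carried by dendritic cells and by their bone marrow progenitors. It lies on the minus strand at chr5:147330741-147400489 (GRCm38). Its reads were 37 in normal control, 8 in normal exercise, 16 in cancer control and 83 in cancer exercise, with log2 values of 5.02, 3.05, 4.22 and 6.61. Flt3 was thus lowest in the normal exercise library and highest in the cancer exercise library. Exercise went with a lower level without tumor, by -1.97 (-3.41 to -0.97), and with a higher level with tumor, by 2.39 (1.69 to 3.34). The tumor effect with exercise was 3.56 (2.68 to 4.98), a 13.2-fold higher read ratio, and without exercise it was -0.80 (-1.79 to 0.04), an interval that includes 0. Of 8 hematopoietic progenitor markers, 4 were also higher and 1 was lower by 2-fold or more in cancer exercise than in normal exercise. Of all tested genes 14.9% were higher and 13.0% lower. The granule genes Mpo, Elane and Prtn3 of that list, named after their values were seen, had 124, 51 and 243 reads in cancer exercise and 3, 0 and 3 in normal exercise. The rest of the list did not move together. Ctsg differed by 5.73, Myb by 0.44, Cd34 by 0.14, Kit by -0.79 and Gata2 by -1.29 between these libraries. The part of progenitors in the Flt3 level was not tested. The ligand gene Flt3l had 248, 120, 85 and 98 reads, highest in normal control, where its receptor was highest in cancer exercise.

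Irf8 is the transcription factor required for cDC1 and also used by monocytes and B cells, and it lies on the plus strand at chr8:120736358-120756694. It had the most reads of the transcription factors, 1335 in normal control, 937 in normal exercise, 523 in cancer control and 1283 in cancer exercise, at log2 values of 10.15, 9.75, 9.16 and 10.55. The cancer control library was the lowest, and the exercise effects had opposite signs without and with tumor, each with an interval that excludes 0. The exercise effect was -0.40 (-0.52 to -0.28) without tumor and 1.39 (1.24 to 1.54) with tumor, the latter a 2.62-fold higher read ratio. The tumor effect was -0.98 (-1.13 to -0.84) without exercise, just short of 2-fold, and 0.80 (0.68 to 0.92) with exercise. Scaling by library totals alone brought the exercise effect with tumor to 0.78, under the 2-fold limit, and the tumor effect with exercise to 0.39, and turned the small difference of cancer exercise over normal control from 0.40 to -0.10.

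Batf3 encodes the partner of Irf8 in cDC1 (plus strand, chr1:191097847-191108945). Its 49, 30, 12 and 55 reads gave log2 values of 5.42, 4.83, 3.83 and 6.03, the order of libraries seen for Irf8. Batf3 was 3.17-fold lower with tumor in unexercised mice, -1.58 (-2.71 to -0.73). In tumor-bearing mice it was 4.89-fold higher with exercise, 2.20 (1.37 to 3.33). The tumor effect with exercise was 1.19 (0.56 to 1.92), which library totals alone reduced to 0.79, and without tumor the exercise effect of -0.58 (-1.30 to 0.09) was within counting error.

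Zbtb46 encodes a zinc finger factor that marks conventional dendritic cells and is also made by endothelium, and GENCODE places it on the minus strand at chr2:181387762-181459426. It had 41 reads in normal control, 58 in normal exercise, 62 in cancer control and 91 in cancer exercise, with log2 values of 5.16, 5.76, 6.11 and 6.75. Unlike Irf8 and Batf3, it was not lowest in cancer control. No comparison that changed a single factor reached 2-fold: the tumor effects were 0.95 (0.37 to 1.57) without and 0.98 (0.51 to 1.5) with exercise, and the exercise effects 0.60 (0.01 to 1.23) without and 0.64 (0.17 to 1.14) with tumor. Library totals alone brought the last of these to 0.04. Cancer exercise exceeded normal control by 1.58 (1.06 to 2.18). The 10 lung endothelium markers summed to 0.136 of their normal control level in cancer control and to 1.01 in cancer exercise. The part of endothelium in the Zbtb46 level was not tested.

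Clec9a encodes the receptor with which cDC1 take up dead cells (plus strand, chr6:129408862-129424763). Its reads were 334 in normal control, 204 in normal exercise, 31 in cancer control and 92 in cancer exercise, at log2 values of 8.15, 7.56, 5.13 and 6.76. Both tumor libraries were below both libraries without tumor. With tumor and without exercise Clec9a was 8.36-fold lower, at -3.02 (-3.64 to -2.53). Between the tumor libraries Clec9a was 3.17-fold higher with exercise, at 1.63 (1.06 to 2.30), or 1.04 with library totals alone, and cancer exercise remained under normal control, with a difference of -1.39. Between the libraries without tumor the exercise effect was -0.60 (-0.86 to -0.34). GENCODE overlaps Clec9a with Clec1b, a platelet gene on the same strand, which had 132, 143, 95 and 519 reads, highest in cancer exercise, where Clec9a was highest in normal control. Whether reads of the overlap were counted for both genes was not tested.

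Itgae encodes CD103, the integrin of lung cDC1 and of T cells that reside in epithelium (plus strand, chr11:73090583-73147446). Its 49, 19, 3 and 5 reads gave log2 values of 5.42, 4.21, 2.12 and 2.80. Both tumor libraries were near the floor. The level was 12.7-fold lower in cancer control than in normal control, with a wide interval, -3.30 (-5.99 to -2.03), since the lower library held only 3 reads. No exercise effect could be detected at this depth between the tumor libraries, 0.68 (-1.53 to 3.52). Without tumor, exercise went with a lower level, -1.22 (-2.10 to -0.46). The kinase gene Haspin lies on the opposite strand within Itgae and had 20, 22, 70 and 4 reads, so that the cancer control library was the highest for Haspin and the lowest for Itgae. The use of strand in counting was not given in the sources used here.

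Cd209a encodes a C-type lectin of the DC-SIGN family that marks cDC2 and monocyte-derived cells, on the minus strand at chr8:3743397-3748984. It had 42 reads in normal control, 47 in normal exercise, 0 in cancer control and 4 in cancer exercise, with log2 values of 5.20, 5.47, 0.08 and 2.54. The exercise effect without tumor, 0.27 (-0.36 to 0.91), was within counting error, and the tumor libraries held almost none of the transcript. Against a floor of 3 reads in cancer control, Cd209a was at least 10.9-fold lower than in normal control. In cancer exercise it was 9.23-fold lower than in normal exercise, -2.93 (-5.14 to -1.76). The step from 0 to 4 reads between the tumor libraries, 2.46 on the deposited scale, had an interval that began at -0.51 and was not detectable at this depth. Among relatives in the family, named after their values were seen, Cd209b had 67, 48, 0 and 35 reads, Cd209c 35, 17, 1 and 19, Cd209d 67, 65, 10 and 25, and Cd209f 34, 23, 5 and 8, so that 4 of 5 had their lowest count in cancer control. Cd209e had at most 10 reads in any library. Reads of these similar genes may have been divided among them by the alignment.

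Clec10a encodes a lectin for galactose-type sugars on cDC2 and macrophages (plus strand, chr11:70156197-70170834). Its reads were 121 in normal control, 75 in normal exercise, 267 in cancer control and 169 in cancer exercise, at log2 values of 6.70, 6.13, 8.20 and 7.63. Both tumor libraries were above both libraries without tumor. The tumor effect was 1.5 (1.19 to 1.83) without exercise and 1.51 (1.12 to 1.93) with exercise, read ratios of 2.85-fold and 2.87-fold. The exercise effects were -0.57 (-1.01 to -0.15) and -0.56 (-0.85 to -0.28) without and with tumor. Library totals alone brought the latter to -1.17. The closest relative, Mgl2, a lectin of cDC2, went the opposite way, with 144, 172, 4 and 30 reads. Of 12 monocyte and macrophage markers, 5 were higher and 1 was lower by 2-fold or more in the tumor effect without exercise (20.6% and 25.7% of all tested genes). In the tumor effect with exercise 8 were higher and 0 lower (14.9% and 13.0%). The complement genes C1qa and C1qc, which macrophages make, had 387 and 290 reads in normal control and 3387 and 2583 in cancer control, while the lysozyme gene Lyz2 had 10973 and 2902. The part of macrophages in the Clec10a level was not tested.

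Siglech, a sialic acid-binding receptor of pDC and of some macrophages, lies on the plus strand at chr7:55768178-55778925. Its 46, 18, 4 and 7 reads gave log2 values of 5.33, 4.13, 2.45 and 3.21, and both tumor libraries were low. The level was 8.92-fold lower with tumor in unexercised mice, -2.89 (-5.09 to -1.70), and lower with exercise in mice without tumor, -1.20 (-2.11 to -0.43). Neither the exercise effect with tumor, 0.77 (-1.08 to 3.12), nor the tumor effect with exercise, -0.92 (-2.52 to 0.31), was distinguishable from 0 at this depth.

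Fscn1 encodes fascin, which bundles actin in mature dendritic cells and in many migrating and dividing cells of other kinds (plus strand, chr5:142960343-142973185). It had 309 reads in normal control, 411 in normal exercise, 2115 in cancer control and 559 in cancer exercise, with log2 values of 8.04, 8.56, 11.18 and 9.35. The cancer control library stood apart from the other three. Fscn1 was 8.83-fold higher there than in normal control, 3.14 (2.97 to 3.32), and 3.55-fold lower in cancer exercise than in cancer control, -1.83 (-1.96 to -1.69). The tumor effect with exercise was 0.79 (0.61 to 0.98), or 0.38 with library totals alone, and the exercise effect without tumor was 0.52 (0.31 to 0.74). If normal exercise held cancer control reads at the median of 1.47% given above, they would amount to 37.1 of its 411 Fscn1 reads. Whether it held such reads was not tested. The summed level of the 14 cell division genes had the library order of Fscn1 too, at 694, 1169, 15945 and 4767 normalized counts. This order was not particular to them. The complement gene C1qb of the macrophage list, named after its values were seen, had it as well, at 182, 273, 1994 and 868 reads. Of 15 tested genes of mature and migratory dendritic cells, 2 were higher and 7 lower by 2-fold or more in cancer control than in normal control. Of all tested genes 20.6% were higher and 25.7% lower. The part of dividing cells, of macrophages or of other cells in the Fscn1 level was not tested.

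Promoter windows of 300 bases (250 before the start and 50 after it, RefSeq, GRCm38.p6) were found for 8 of the 10 genes, 9 windows in all since Irf8 has a pair. Itgae and Clec10a had none. The windows of 3 surface genes that were low together in the tumor libraries, and of Zbtb46, which was not, are shown, 5' to 3' on the strand of the gene, with motif matches in capitals. Zbtb46's RefSeq start lies inside the GENCODE span of the gene.
Clec9a, chr6:129408612-129408911, plus strand: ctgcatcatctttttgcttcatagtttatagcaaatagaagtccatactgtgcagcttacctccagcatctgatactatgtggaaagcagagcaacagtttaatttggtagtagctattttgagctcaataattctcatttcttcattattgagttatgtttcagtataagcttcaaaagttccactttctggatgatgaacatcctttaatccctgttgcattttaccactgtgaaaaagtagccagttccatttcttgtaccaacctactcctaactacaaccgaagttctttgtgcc
Siglech, chr7:55767934-55768233, plus strand: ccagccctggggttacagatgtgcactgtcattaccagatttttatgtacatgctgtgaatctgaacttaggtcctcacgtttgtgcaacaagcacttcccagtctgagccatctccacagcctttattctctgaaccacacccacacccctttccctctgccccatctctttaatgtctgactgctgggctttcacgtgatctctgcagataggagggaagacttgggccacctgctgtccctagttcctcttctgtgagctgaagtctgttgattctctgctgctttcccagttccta
Cd209a, chr8:3748935-3749234, minus strand: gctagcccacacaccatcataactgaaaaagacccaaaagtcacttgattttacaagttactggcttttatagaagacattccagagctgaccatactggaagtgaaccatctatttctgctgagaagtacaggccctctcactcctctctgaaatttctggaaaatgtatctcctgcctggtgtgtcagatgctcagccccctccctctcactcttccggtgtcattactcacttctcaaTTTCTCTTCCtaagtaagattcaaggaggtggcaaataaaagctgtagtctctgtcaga
Zbtb46, chr2:181424339-181424638, minus strand: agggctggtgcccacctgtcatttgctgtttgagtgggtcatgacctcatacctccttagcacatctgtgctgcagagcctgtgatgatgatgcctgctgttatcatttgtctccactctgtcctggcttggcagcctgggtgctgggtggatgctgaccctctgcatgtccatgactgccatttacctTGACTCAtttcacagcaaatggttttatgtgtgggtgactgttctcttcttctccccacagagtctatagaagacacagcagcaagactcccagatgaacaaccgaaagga

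Motifs of factors that act in dendritic cells were searched on both strands. The composite of ETS and IRF factors, GGAA and GAAA with 2 bases between them, was present in 1 of the 9 windows, as its reverse complement in Cd209a with its first base at position -9 from the start (capitals above), and in 2.72% of all 32851 RefSeq windows of this length. The AP-1 motif TGANTCA, read by Batf-type proteins with their Jun partners, was present in 1 window, Zbtb46 at position -61, and in 7.81% of all windows. The PU.1 letters GAGGAAGT, in 3.2% of all windows, and the paired IRF letters, GAAA and GAAA with 2 bases between them, in 3.44%, were in none of the 9. The motifs can overlap each other. A match describes these letters only, and nothing follows about binding.

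The comparison of normal exercise with normal control addressed exercise in mice without cancer. Flt3, Itgae and Siglech were lower by 2-fold or more, 3 of the 10 genes, and 0 were higher. Over all tested genes 4.70% were lower and 5.28% higher by that limit, 9.98% in either direction. The median difference of the 10 genes was -0.58, against 0.00 for all tested genes. All 3 had at most 49 reads in either library, and none of the members with over 100 reads in normal control passed the limit. Between the same libraries 7 of 9 neutrophil markers were higher by 2-fold or more, with a median of 1.65, and 5 of 14 cell division genes, with a median of 0.78, and their part in the members' levels was not tested.

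The tumor effect in unexercised mice was read from cancer control over normal control. Clec9a, Itgae, Cd209a, Siglech and Batf3 were lower by 2-fold or more, 5 of the 10 genes, against 25.7% of all tested genes. Fscn1 and Clec10a were higher, 2 of the 10, against 20.6%. The median was -1.28, against -0.03 for all tested genes, and setting Cd209a at its bound left it at -1.28. In this comparison 46.2% of the tested genes differed by 2-fold or more in either direction, so the members' share of 7 in 10 stands on a wide background.

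Between the tumor libraries, cancer exercise over cancer control, the question was how exercise altered the lungs once cancer was present. Clec9a, Flt3, Batf3, Irf8 and Cd209a were higher by 2-fold or more, 5 of the 10 genes, against 24.3% of all tested genes, and Fscn1 was lower, 1 of 10, against 17.7% (42.0% in either direction). The median was 1.08, against 0.01 for all tested genes. Cd209a rests on 0 and 4 reads, and with it at the bound against the floor the median was 0.72 and 4 genes were higher.

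In exercised mice the tumor effect, cancer exercise over normal exercise, had Flt3, Batf3 and Clec10a higher by 2-fold or more, 3 of the 10 genes against 14.9% of all tested genes. Itgae and Cd209a were lower, 2 of 10 against 13.0% (27.8% in either direction). Itgae was 2.99-fold lower at -1.41 (-3.35 to -0.11). The median of the 10 genes was 0.80, against 0.00. Library totals alone would add Clec9a (-1.20) and Siglech (-1.30) to the lower genes and remove Batf3 from the higher ones.

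Across both factors, cancer exercise over normal control, Flt3, Zbtb46 and Fscn1 were higher by 2-fold or more (3 of 10, against 14.8% of all tested genes) and Clec9a, Itgae, Cd209a and Siglech were lower (4 of 10, against 14.4%, with 29.2% in either direction). Flt3 differed by 1.59 (1.05 to 2.23) and Fscn1 by 1.31 (1.11 to 1.52), the latter falling to 0.81 with library totals alone. Siglech differed by -2.12 (-3.65 to -1.10), Itgae by -2.62 and Cd209a by -2.67. These 5 comparisons share libraries with each other and are not independent.

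**Figure D2:**
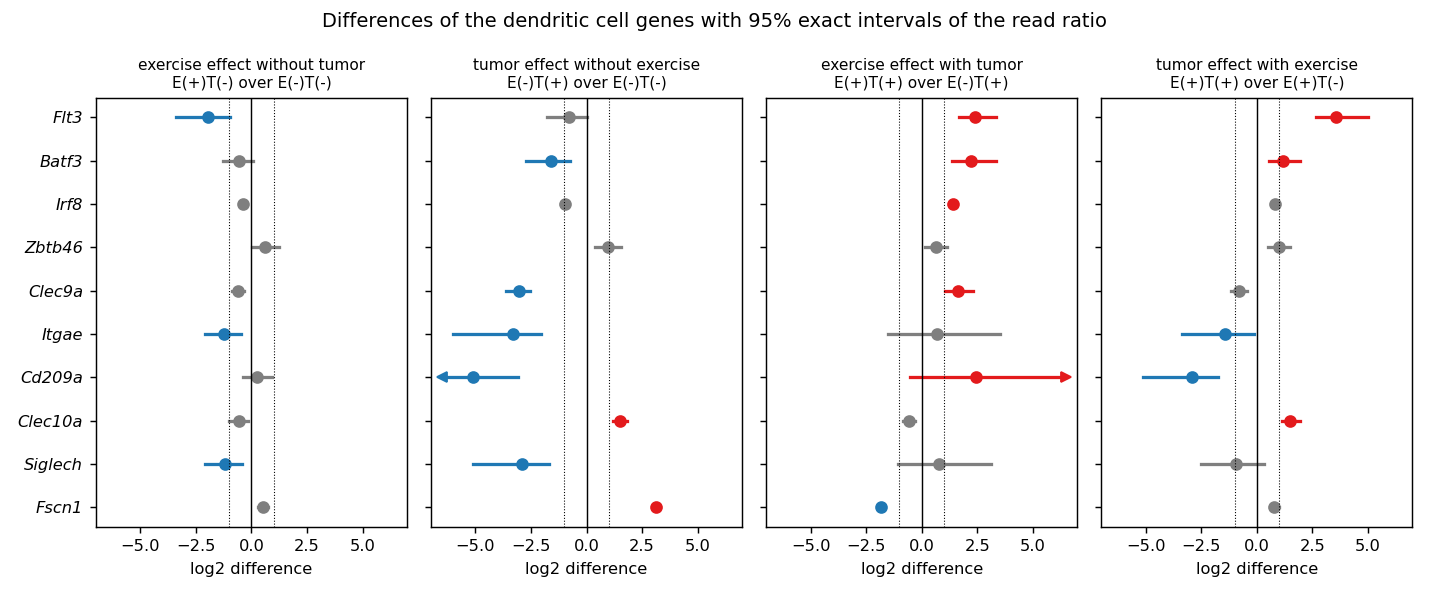
Log2 differences of the deposited values (x axis, points) of the 10 genes (rows) in 4 comparisons, with 95% exact intervals of the log2 read ratio as horizontal lines and an arrow where an end is unbounded. Dotted lines mark 2-fold; red and blue mark differences of 2-fold or more, higher and lower, and Flt3 moves from -1.97 in the left panel to 3.56 in the right one.

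**Figure D3:**
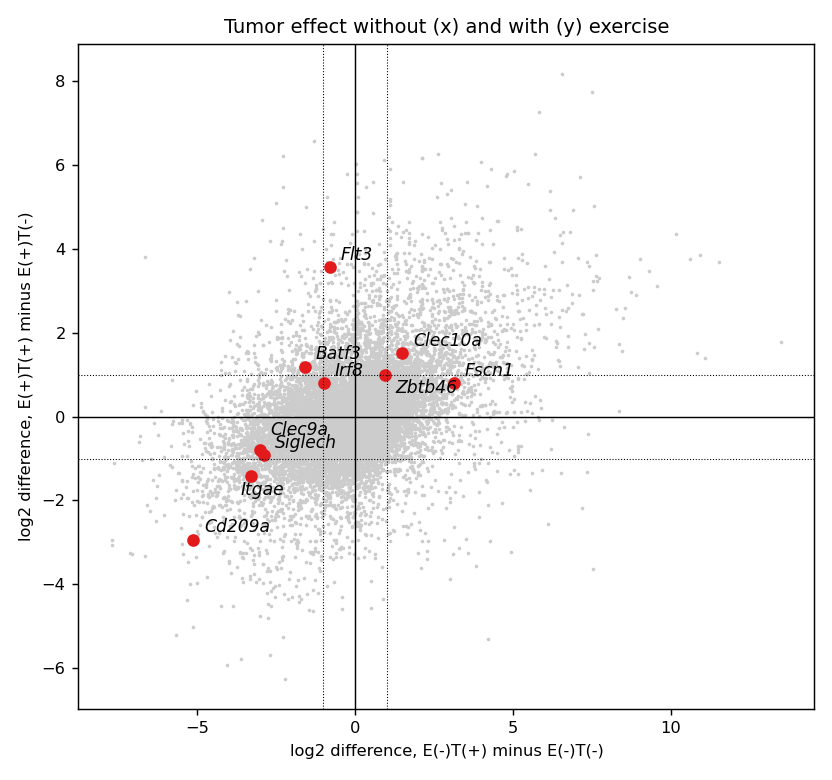
Tumor effect in unexercised mice (x axis) and in exercised mice (y axis), as log2 differences of the deposited values, for the 15164 tested genes in grey and the 10 dendritic cell genes in red, with dotted lines at 2-fold. Batf3 (-1.58 and 1.19) and Irf8 (-0.98 and 0.80) lie at the upper left with Flt3 above them (-0.80 and 3.56), and Cd209a lies at the lower left.

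An additive fit over all 4 libraries (limma, exercise and tumor as factors, 1 residual degree of freedom) called 0 of the 10 genes for exercise, where it called 0 of 15164 genes. At an unadjusted p under 0.05 there were also 0 members, against 4.97% of all genes, and the adjusted p of each member was 0.999. For tumor it called 0 members, against 3.26% of all genes (0 without the filter on low values or without the variance trend), and 4 members, Fscn1, Cd209a, Clec9a and Clec10a, had an unadjusted p under 0.05, against 17.8% of all genes. The tumor coefficient of Fscn1 was 1.96 ± 0.53 (SE), with a limma adjusted p of 0.0569 that ranged from 0.0192 to 0.733 over the alternatives. For Cd209a it was -4.03 ± 1.19, with a limma adjusted p of 0.0756 that ranged from 0.0125 to 0.733. The residual of this fit is the interaction of the factors, and effects of opposite sign average out in it: Batf3, at -1.58 and 1.19 in the separate tumor comparisons, had a tumor coefficient of -0.20 ± 0.95.

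Other genes of each lineage, from lists that do not hold the 10 genes, were read the same way (Id2 and Relb each stand in 2 of the lists). Over all tested genes, 25.7% were lower and 20.6% higher by 2-fold or more in cancer control over normal control. In cancer exercise over cancer control, 24.3% were higher and 17.7% lower. These shares are the background of each list count given below for those comparisons. Of 11 tested cDC1 genes, 8 were lower by 2-fold or more in cancer control than in normal control, with a median of -1.54, and 6 were higher in cancer exercise than in cancer control, with a median of 1.02 (5 higher and a median of 0.74 with a gene at 0 reads set at its bound). The chemokine receptor gene Xcr1, the cross-presentation factor gene Wdfy4 and the adhesion gene Cadm1 had 46, 441 and 5306 reads in normal control. In cancer control they had 5, 41 and 1419, and in cancer exercise 21, 217 and 1465. Cadm1 had far more reads than the cDC1 receptor gene Xcr1, and the part of other cells in its level was not tested. Between the tumor libraries Xcr1 differed by 1.97 (0.72 to 3.93) and Wdfy4 by 2.47 (2.01 to 3.02), as Clec9a did by 1.63, while Cadm1 differed by 0.14 (0.03 to 0.25). Cd24a and Id2, which many other cells also make, had 3642 and 6411 reads in cancer exercise, above their 1895 and 3547 in normal control.

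Among 11 tested cDC2 genes, 3 were lower and 3 higher by 2-fold or more in cancer control over normal control. The shares over all tested genes were 25.7% and 20.6%, and the median of the list was -0.02. Mgl2, the chemokine gene Ccl17 and the adhesion gene Esam, which endothelium also makes, differed by -4.50 (-6.70 to -3.42), -2.36 (-3.52 to -1.54) and -2.36 (-2.49 to -2.23). The Notch factor Rbpj was higher by 2.57 (2.42 to 2.72). The other 2 higher genes, named after their values were seen, were the integrin gene Itgam, at 4.22 (3.80 to 4.75), which monocytes and neutrophils also make, and the lectin gene Clec4a4, at 2.78 (1.54 to 5.05). Klf4, a factor of cDC2 and of many other cells, differed by -0.02 (-0.13 to 0.09). In the exercise effect with tumor 3 of the 11 were higher and 1 lower, against 24.3% and 17.7% of all tested genes. Mgl2 was at 2.73 (1.5 to 4.97) and Rbpj at -2.11 (-2.26 to -1.96).

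Of 13 tested pDC genes, 6 were lower and 1 was higher in the tumor effect without exercise (25.7% and 20.6% of all tested genes). In the exercise effect with tumor 6 were higher and 1 lower (24.3% and 17.7%). Spib, a pDC and B cell factor, had 99, 146, 2 and 37 reads, and the homing receptor gene Ccr9 had 25, 56, 6 and 20. For Siglech the cancer exercise library held 7 reads against 46 in normal control. Tcf4, the pDC master factor that endothelium and fibroblasts also make, stayed within 2-fold, at 0.33 (0.28 to 0.38) and -0.77 (-0.84 to -0.71) in these 2 comparisons. Runx2, a factor of pDC and of bone-forming cells, was higher in cancer control by 2.71 (2.36 to 3.11). The muscle and pDC gene Cox6a2 was lower there by -1.04 (-1.30 to -0.79). Irf7, the interferon regulator, had 138, 97, 212 and 372 reads. It was just within 2-fold in these 2 comparisons, at 0.98 and 0.90, and was higher by 2.27 (1.96 to 2.62) in the tumor effect with exercise and by 1.88 (1.61 to 2.18) in cancer exercise over normal control.

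Mature and migratory dendritic cell genes were lower by 2-fold or more in 7 of 15 tested genes and higher in 2 in the tumor effect without exercise. Of all tested genes 25.7% were lower and 20.6% higher there. In the exercise effect with tumor 7 of 15 were higher (6 with a gene at 0 reads set at its bound) and 0 lower, against 24.3% and 17.7%. The lymph node homing receptor gene Ccr7 differed by -3.87 (-5.54 to -2.91) and then 3.59 (2.61 to 5.28), Cd83 by -2.93 and 2.72 and the costimulatory gene Cd40 by -2.78 and 2.48. The signalling inhibitor Socs2 differed by -1.95 and 2.15. Tmem123 was at -1.12 and 0.73 and Marcks at -0.54 and 0.74. These genes had signs opposite to those of Fscn1 (3.14 and -1.83). Marcksl1 (2.19 and -0.83), Relb (0.87 and -0.92) and Nudt17 (0.85 and -0.83) of the same list, named after their values were seen, had the signs of Fscn1.

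Growth factors and receptors of dendritic cells were mixed. In the tumor effect without exercise 4 of 11 tested genes were lower and 2 higher by 2-fold or more (25.7% and 20.6% of all tested genes). In the exercise effect with tumor 4 were higher and 2 lower (24.3% and 17.7%). The lymphotoxin gene Ltb, with 159, 121, 7 and 104 reads, and the chemokine gene Ccl19, with 16, 18, 1 and 18, were low in cancer control alone of the 4 libraries. Ccl19 had 2 rows, and these are the reads of the row with the higher mean only. Il34, a ligand of the macrophage receptor Csf1r, had 343, 266, 2405 and 337 reads and was highest in cancer control, as was Fscn1. Csf1r had log2 values of 10.12, 10.35, 10.42 and 10.87, a difference of 0.75 (0.64 to 0.85) between cancer exercise and normal control. Ltbr was higher in cancer control by 1.25 (1.12 to 1.38), and Lta had at most 13 reads in any library.

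Shared transcription factors were lower in 4 and higher in 1 of 12 tested genes in the tumor effect without exercise (25.7% and 20.6% of all tested genes). They were higher in 7 and lower in 0 in the exercise effect with tumor (24.3% and 17.7%), with a median of 1.28. Cbfa2t3, a corepressor that acts in dendritic cell progenitors, had 2386, 2825, 224 and 1174 reads, and the pDC and B cell factor Bcl11a 26, 66, 0 and 15. The myeloid factor Spi1 (PU.1) and Nfil3, which acts upstream in cDC1 development, were highest in cancer exercise, at 888 and 1336 reads, against 239 and 112 in normal control. Stat3, through which the Flt3 receptor signals, differed by -0.10 and 0.69.

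Markers of other cells moved between the same libraries, and their part in the levels of the 10 genes was not tested. In cancer control over normal control, 9 of 10 T cell markers and 9 of 9 tested B cell markers were lower by 2-fold or more. Their summed levels were 0.157 and 0.0465 of normal control, with 1 and 5 genes at 0 reads, and in cancer exercise they were 0.76 and 0.348. The T cell genes Cd3d, Lck and Cd247 differed by -2.30, -3.35 and -2.75 and the B cell genes Cd79b, Ebf1 and Cr2 by -4.34, -2.93 and -2.70. The 10 alveolar epithelium and the 10 lung endothelium markers were all lower by 2-fold or more in cancer control, with sums at 0.146 and 0.136 of normal control, and all were higher in cancer exercise than in cancer control, where the sums were 0.81 and 1.01. The surfactant genes Sftpc and Sftpa1 and the type 1 cell gene Ager differed by -3.24, -2.59 and -2.75 with tumor and without exercise, and the endothelial genes Pecam1, Egfl7 and Ramp2 by -2.73, -2.06 and -3.19. The low Clec9a, Itgae, Cd209a, Siglech and Batf3 levels of cancer control and the lower levels of lung structural genes in that library cannot be told apart with 1 library per group.

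The sums of the other lists moved in several directions. Monocyte and macrophage markers summed to 1.26 and 1.23 of normal control in cancer control and cancer exercise, with C1qa and C1qc at 3.49 and 3.52 and the lysozyme gene Lyz2 at -1.55 in the tumor effect without exercise. Alveolar macrophage markers summed to 1.15 and 1.71, while the medians of the 8 genes went the other way. By 2-fold or more, 5 were lower and 2 higher in cancer control over normal control, with a median of -2.22. By the same limit, 4 were lower and 2 higher in cancer exercise over normal control (14.4% and 14.8% of all tested genes), with a median of -0.91. Chil3, Fabp4 and Car4 were at 0.05, 1.56 and -3.51 in the former and at 2.93, -2.16 and -1.03 in the latter, where Chil3 had 8431 reads. Neutrophil markers summed to 3.12 times normal control in normal exercise, 2.59 in cancer control and 52.8 in cancer exercise. By 2-fold or more, 7 of 9 were higher in cancer control than in normal control (median 1.69), and 9 of 9 in cancer exercise over cancer control, where S100a8, S100a9 and Retnlg differed by 4.53, 4.40 and 4.48. Progenitor markers summed to 2.59 and 1.1, sums in which Cd34, Gata2 and Kit have the highest mean levels. These were at 2.38, -0.90 and -3.86 in the tumor effect without exercise and at 0.55, -1.05 and -1.46 in cancer exercise over normal control. In the latter comparison 4 of 8 progenitor markers, the granule genes Mpo, Elane, Ctsg and Prtn3, were higher and 2 were lower by 2-fold or more, with a median of 2.83 (2.48 with genes at 0 reads set at their bound). Erythroid markers summed to 0.0924 in cancer control and 3.1 in cancer exercise, led by the hemoglobin genes Hba-a1, Hbb-bs and Hbb-b1, whose near-identical copies may share reads. Fibroblast and smooth muscle markers summed to 2.86 and 1.36, but in the tumor effect without exercise 4 of 10 were higher and 4 lower by 2-fold or more, with a median of 0.52. The matrix genes Col1a2, Col3a1 and Dcn were at 2.78, 2.33 and 1.26. The contractile genes Acta2, Myh11 and Tagln and the receptor gene Pdgfrb, named after their values were seen, were at -2.45, -2.84, -1.28 and -1.50. Cell division genes summed to 23 and 6.87 times normal control, and Top2a, Birc5 and Cenpf differed by 4.50, 5.72 and 4.65 in cancer control, the library in which Fscn1 was highest.

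**Figure D4:**
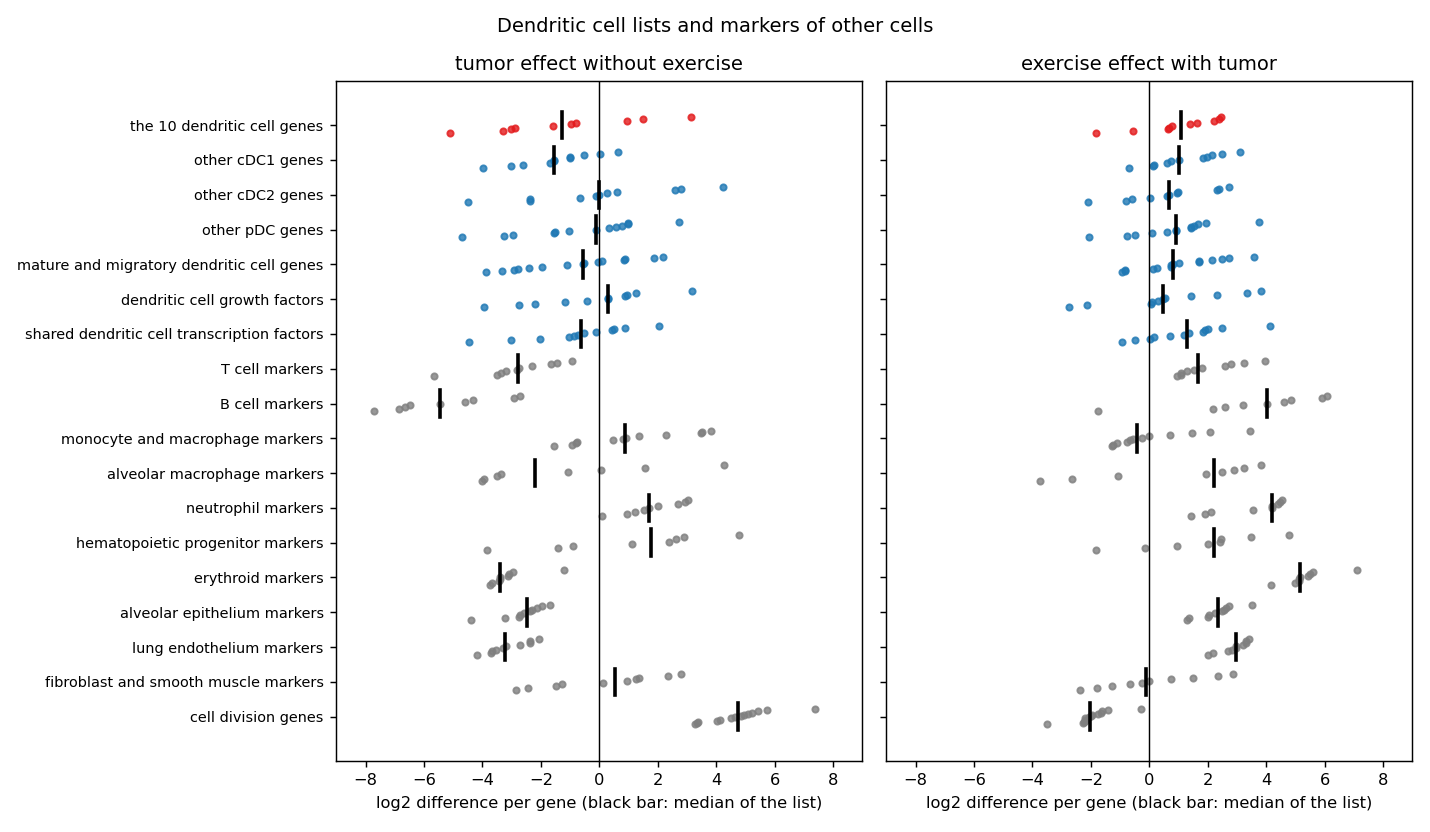
Log2 differences of single genes (points) in the 10 dendritic cell genes (red), other dendritic cell lists (blue) and markers of other cells (grey), for the tumor effect without exercise (left) and the exercise effect with tumor (right), with black bars at list medians. The 10 genes spread widely in both panels around medians of -1.28 and 1.08, while lung endothelium markers are all below 0 on the left and all above 0 on the right.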

How the data were processed

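Lung RNA was sequenced by the authors with a QuantSeq 3' kit on a NextSeq 500. The authors aligned the reads with Bowtie2 (build mm10 per the submitters' processing notes), counted them with bedtools and normalized them with the quantile method of edgeR, versions and use of strand not given in the sources used here. The deposited values are log2(normalized read count + 1) at 3 decimals, 23282 rows per library. Whole reads were recovered by inverting that adjustment (fitted dispersion 0.372, 100.00% of values within 0.001), and the recovery was tested on simulated data. The authors' scaling factors came out as 1.086 for normal control (13017497 reads), 1.023 for normal exercise (12780367), 1.172 for cancer control (9354517) and 0.768 for cancer exercise (13367999). Intervals and the floor of 3 reads address counting error only. They treat reads as independent, but reads without molecular identifiers are not independent molecules. The intervals may therefore be too narrow even for counting error.

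Genes whose normalized count averaged 4 or more were compared by the difference of deposited log2 values, called at 2-fold, which understates changes of low genes. limma 3.58.1 (R 4.3.3) fitted the additive model with Benjamini-Hochberg adjustment over 15164 rows at 0.05. A count test was planned only if the files held counts, and none was run on the recovered reads. Python 3.11.15 with scipy 1.17.1 did the rest. The 10 genes and the 17 other lists were chosen with earlier results of these data known. All 10 genes are named, as are, of each other list, the 3 genes of highest mean and, of dendritic cell lists, up to 4 of the largest exercise effects with tumor whose interval excludes 0. Flt3l and the genes said to be named after their values were seen fall outside that rule. Alternatives changed the scaling, quantile adjustment, pseudocount, filter, limit and variance trend. Taking an assumed cancer control share out of normal exercise was added after seeing the data, and whether such a share was present was not tested. Ly6g and Ahsp were not analysed here. Gene positions are from GENCODE M21 (GRCm38).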

Additional observations from a re-analysis of the deposited data

Results flagged for a closer look

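Clec9a, Flt3, Irf8 and Fscn1 had exercise effects of opposite sign without and with tumor, each with an exact interval on its own side of 0. The effects were -0.60 and 1.63 for Clec9a, -1.97 and 2.39 for Flt3, -0.40 and 1.39 for Irf8, and 0.52 and -1.83 for Fscn1. Batf3 and Irf8 had tumor effects of opposite sign without and with exercise, -1.58 and 1.19 for Batf3 and -0.98 and 0.80 for Irf8. Each effect rests on 1 library per group, and the difference between the effects was not tested.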

How the results depend on the processing

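Of 340 values of single genes under other settings, 326 stayed within the counting interval of the reported difference and 14 did not, and no difference of 2-fold or more changed sign. Of 106 counts of genes, 90 were unchanged or within 1.5 times. With a mean normalized count of at least 100, which 4 of the 10 genes and 9396 of all genes passed, 0 were lower in the exercise effect without tumor (0.447% of the passing genes), 1 was lower in the tumor effect without exercise (1877 of the passing genes), 2 were higher in the exercise effect with tumor (19.5%), 1 was higher and 0 lower in the tumor effect with exercise (9.80% and 8.14%), and 1 was higher and 1 lower in cancer exercise over normal control (10.5% and 8.97%). With a limit of 1.5-fold, the exercise effect without tumor had 1 higher gene (11.1% of all tested genes), 8 were higher in the exercise effect with tumor (33.0%), 6 were higher and 4 lower in the tumor effect with exercise (24.2% and 24.6%), and 5 were higher in cancer exercise over normal control (24.6%). With library totals alone, 2 were lower in the exercise effect with tumor (35.4% of all tested genes) and 4 in the tumor effect with exercise (24.2%), and limma called 1 gene for tumor, Cd209a (adjusted p 0.0125), against 5.45% of all tested genes. With a pseudocount of 4, limma called 2 genes for tumor, Cd209a (0.0442) and Fscn1 (0.0192), against 5.83%. Over all genes limma called 495 for tumor as reported, 827 and 884 under these settings, 310 with median-of-ratios size factors, and 0 without the filter, with the mean of at least 100 or without the variance trend. Single genes crossed the 2-fold limit with library totals alone (Zbtb46 1.05 in the tumor effect without exercise). Without the hemoglobin genes, Irf8 (-1.08 in the same effect) and Siglech (-1.01 in the tumor effect with exercise) crossed it. With the assumed cancer control share taken out, Zbtb46 crossed it (1.01 in the tumor effect with exercise). The cause of these changes was not tested, apart from the settings' own construction. The depth limits Itgae, Cd209a and Siglech most, with at most 7 reads in each tumor library. No paired analysis was possible because each group has 1 library and the labels carry no replicate numbers.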
